A study of Drosophila melanogaster with 6 samples.

Results

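The odorant binding protein (Obp) genes of the fly head were followed through 6 RNA sequencing libraries of the fruit fly Drosophila melanogaster. The total RNA came from whole heads of Canton S (wild type) females aged 4 days. Members were all gene identifiers whose FlyBase symbol begins with Obp and a digit, which gave 51 of the 17509 genes in the count files. The vitamin A deprived group (3 libraries) came from flies raised on minimal food without beta-carotene, and the vitamin A replete group (3 libraries) from flies raised on the same kind of food with beta-carotene added. Both groups were kept at 25 °C and 50% relative humidity and carried no other treatment or allele per the labels, which do not tell whether separate sets of flies were used for the libraries. The p-values hence measure only how far these samples spread, and that spread may be technical in origin. The question is which Obp genes are expressed at other levels in heads of flies fed no vitamin A source.

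Odorant binding proteins are small secreted proteins, held together by disulphide bonds, that carry hydrophobic molecules through watery fluids. In the antenna and maxillary palp, support cells release them into the lymph that bathes the dendrites of olfactory neurons, and other members are made in taste sensilla, glia, fat body or the male reproductive tract. The gene lush encodes a further odorant binding protein, needed for the response to the male pheromone cis-vaccenyl acetate. Its symbol does not follow the naming rule, so it was not a member and is given beside the members.

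Levels are in CPM, the count of a gene scaled to a common library size after normalization with the trimmed mean of M values (TMM). Library totals ran from 15668307 to 24165187 counts, and the deprived libraries were all deeper than the replete ones. Codes of the libraries in the labels start differently for each diet without saying what they mark, so a batch along those codes and the diet cannot be told apart. A count of 3 stood for 0.125 to 0.186 CPM, a floor that covers counting error only. Markers of head tissue were present. The most abundant eye genes, ninaE and Arr2, averaged 11488 and 2871 CPM over the 6 libraries, the neuronal genes Syt1 and nSyb 1238 and 991 CPM, the fat body genes apolpp and Yp1 29171 and 17936 CPM, and the blood cell genes Ppn and Hml 484 and 304 CPM. Among the lists of tissue markers, 2 genes were called, 1 of 5 tested eye genes and 1 of 5 tested fat body genes. Over all tested genes 0.0367% were called lower and 0.294% higher in deprived heads. Arr2, a photoreceptor arrestin, was lower in deprived heads, at 2018 ± 252 against 3724 ± 336 CPM (SD, n = 3 each; edgeR quasi-likelihood, log2 fold change -0.88, BH-adjusted p = 0.00272). Lsp2, a larval serum protein also made by adult fat body, was higher, at 1083 ± 152 against 641 ± 97.1 CPM (edgeR quasi-likelihood, log2 fold change 0.76, BH-adjusted p = 0.0373). Libraries of the replete group stood apart in markers of other tissues. The 10 eggshell genes, led by Cp38 and Cp36 at 4.23 and 1.22 CPM on average, summed to 55.6 CPM in replete library 2 and to 0.806 to 3.24 CPM in the other 5 libraries, and the 11 midgut trypsin genes, 7 of them at 0 in all 6 libraries, summed to 3.56 CPM in replete library 2 and at most 0.274 CPM elsewhere, with alphaTry and iotaTry averaging 0.226 and 0.180 CPM. The 5 muscle genes, led by Mhc and Mlc2 at 2886 and 1005 CPM on average, summed to 6102 CPM in replete library 3, 4422 and 3901 CPM in the other replete libraries and 3529 to 4762 CPM in the deprived libraries. All 5 had a lower fitted level in deprived heads, as did 52.0% of all tested genes. In the edgeR quasi-likelihood test 3 were lower and 0 higher at an unadjusted p under 0.05, beside 2.41% and 2.72% of all tested genes. The part of muscle content in the Obp levels was not tested. The 5 germline genes that could be matched, led by osk and otu at 15.4 and 9.12 CPM on average, summed to 79.9, 36.6 and 0.492 CPM in replete libraries 1, 2 and 3 and to 16.3, 42.1 and 11.9 CPM in deprived libraries 1, 2 and 3. The spermatheca genes Send2 and Send1 averaged 0.123 and 0.0753 CPM.

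Of the 51 members, 41 had a count in at least 1 library and 10 were at 0 in all 6. A mean of at least 100 CPM was reached by 5 members and of 10 to 100 CPM by a further 14. The 2 most abundant, Obp19d and Obp99c, made up 53.3% of the summed Obp level and the top 5 made up 80.3%. Obp19d, made in the antenna and in other sense organs, was at 588, 714 and 524 CPM in deprived libraries 1, 2 and 3 and at 619, 746 and 683 CPM in replete libraries 1, 2 and 3. Obp99c was at 583, 459 and 589 CPM in the deprived libraries and at 468, 687 and 389 CPM in the replete libraries. Both sets of values overlapped between diets. Divided by exonic length, the order of these genes was the other way round, with Obp99c at 791 CPM per kb and Obp19d at 586 CPM per kb. Obp99c was the higher per kb in 5 of the 6 libraries, the exception being replete library 3.

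**Figure D1:**
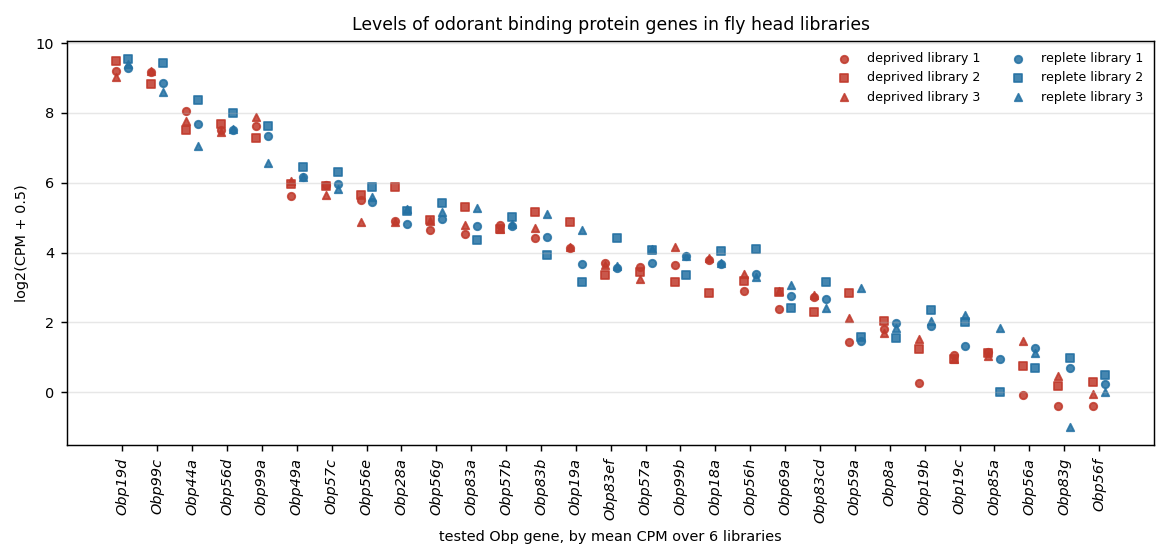
Level of each of the 29 tested Obp genes, as log2(CPM + 0.5) on the vertical axis, with genes on the horizontal axis in order of mean CPM. Each point is 1 library (red, deprived; blue, replete; shape, library number). Levels run from the 646 CPM mean of Obp19d to the 0.589 CPM mean of Obp56f, and the diets overlap for all but 5 genes.

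Obp44a, which is known from glia of the central nervous system, was the third most abundant member by CPM. It was at 265, 183 and 219 CPM in the deprived libraries and at 207, 334 and 132 CPM in the replete libraries, so that replete libraries 2 and 3 held the highest and the lowest of the 6 values. The 5 glial marker genes, led by Gs2 and Eaat1 at 1172 and 337 CPM on average, summed to 1750, 2180 and 1935 CPM in replete libraries 1, 2 and 3 and to 1805 to 1979 CPM in the deprived libraries, and their part in the Obp44a values was not tested. Obp56d was at 181, 206 and 174 CPM without vitamin A and at 181, 256 and 185 CPM with it. Obp99a was at 196, 156 and 236 CPM against 161, 199 and 93.9 CPM. For Obp44a and Obp99a, the spread within the replete group, at 2.52-fold and 2.12-fold from lowest to highest, was wider than the difference between group means.

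No member passed the test between diets. Fold changes are deprived over replete and come from edgeR's quasi-likelihood test over 10896 genes, with calls made where the p adjusted after Benjamini and Hochberg (BH) was under 0.05. The filter on low counts left 29 members, so counts over them do not speak for all 51. With 0 of 29 Obp genes called in either direction, the background was 0.0367% of all tested genes called lower and 0.294% called higher in deprived heads. DESeq2 and limma-voom also called 0 of 29, against 0.229% of genes lower and 0.551% higher in DESeq2 and 0.0551% lower and 0.22% higher in limma-voom. The smallest BH-adjusted p of a member was 0.607 in edgeR, 0.372 in DESeq2 and 0.616 in limma-voom. Among the tested members 21 had a negative and 8 a positive log2 fold change, with a median of -0.17, beside a median of -0.01 and 52.0% negative over all tested genes.

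At an unadjusted p under 0.05, 5 of the 29 members (17.2%) were lower in deprived heads and 0 were higher, where 2.41% of all tested genes were lower and 2.72% higher. These were Obp19b, Obp19c, Obp49a, Obp56g and Obp57a. The same 5 were the members whose deprived values all lay below their replete values, a separation seen in that direction for 5.02% of all tested genes and in the other direction for 5.86% of genes and 0 members. DESeq2 and limma-voom gave the same 5 genes as lower at this threshold, beside 2.74% and 2.28% of all genes, and 0 members as higher, beside 2.47% and 2.9%.

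Obp49a acts in taste sensilla, where it is known for lowering the response of sweet neurons when bitter compounds are present. It was the most abundant of the 5, at 49.1, 62.2 and 66.1 CPM in deprived libraries 1, 2 and 3 and at 71.0, 87.7 and 71.2 CPM in replete libraries 1, 2 and 3. The highest deprived and the lowest replete library were close, and the group means were 59.2 ± 8.94 and 76.6 ± 9.62 CPM (SD, n = 3 each), a log2 fold change of -0.37 ± 0.13 (SE; edgeR quasi-likelihood, unadjusted p = 0.0143, BH-adjusted p = 0.671). Obp19b, which takes part in the taste of amino acids, was at 0.700, 1.87 and 2.38 CPM in the deprived libraries and at 3.23, 4.63 and 3.57 CPM in the replete libraries. The values rest on 16 to 57 counts without and 52 to 82 counts with vitamin A. Its log2 fold change of -1.20 ± 0.44 (SE; edgeR quasi-likelihood, unadjusted p = 0.0179, BH-adjusted p = 0.758) was the one furthest from 0 among the tested members, with a 95% interval of -2.16 to -0.25.

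Obp19c, a neighbour of Obp19b in the genome, was at 1.57, 1.42 and 1.42 CPM in the deprived libraries and at 1.98, 3.56 and 4.12 CPM in the replete libraries. These values rest on 36, 31 and 34 counts without and 32, 63 and 67 counts with vitamin A. Replete library 1 thus lay above the deprived libraries only after scaling to library size. The deprived libraries agreed closely while the replete libraries spread 2.08-fold, and the log2 fold change was -1.13 ± 0.39 (SE; edgeR quasi-likelihood, unadjusted p = 0.0140, BH-adjusted p = 0.665). Obp57a was at 11.6, 10.5 and 9.02 CPM against 12.5, 16.5 and 16.6 CPM, a log2 fold change of -0.55 ± 0.19 (SE; edgeR quasi-likelihood, unadjusted p = 0.0120, BH-adjusted p = 0.607). Obp56g, known from taste sensilla and also as a seminal fluid protein in males, was at 24.6, 30.3 and 29.6 CPM against 30.8, 42.3 and 35.4 CPM, a log2 fold change of -0.36 ± 0.15 (SE; edgeR quasi-likelihood, unadjusted p = 0.0296, BH-adjusted p = 0.894). For Obp56g the highest deprived value was 0.984 of the lowest replete value, so the groups were barely apart.

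**Figure D2:**
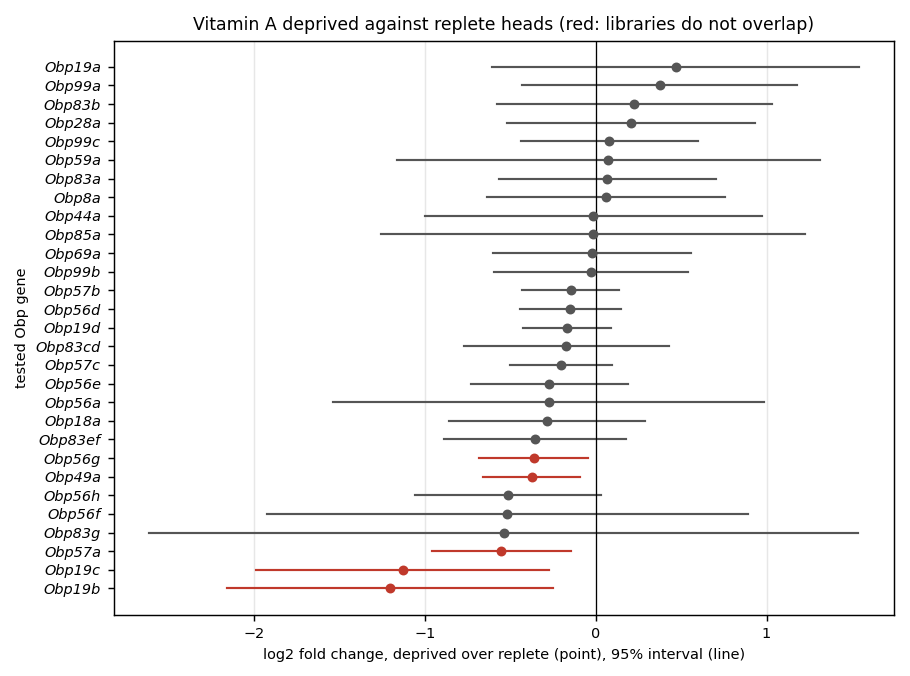
Log2 fold change (deprived over replete, horizontal axis) of the 29 tested Obp genes, with 95% intervals from the edgeR fit as lines. Red marks the 5 genes whose libraries do not overlap between diets, with intervals below 0. The intervals of the other 24 genes cover 0.

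The other members expressed at 10 CPM or more had intervals that covered 0. For Obp57c, with group means of 57.0 ± 5.98 and 65.5 ± 12.2 CPM, the interval of the log2 fold change was -0.50 to 0.10, and for Obp57b, with 26.0 ± 1.19 and 28.7 ± 2.98 CPM, it was -0.43 to 0.14. Obp56d had an interval of -0.44 to 0.15 and Obp19d one of -0.43 to 0.09, so these data bound a fall of these abundant transcripts more narrowly than that of Obp44a, with an interval of -1.0 to 0.98. Obp56e was at 41.3 ± 11.1 against 49.8 ± 7.96 CPM, and an antisense RNA gene overlaps 449 of its exonic bases. Obp56h, which influences mating behaviour, was at 6.91, 8.59 and 9.86 CPM against 10.05, 16.7 and 9.35 CPM (edgeR quasi-likelihood, unadjusted p = 0.0631, BH-adjusted p = 0.988). Obp18a was at 11.2 ± 3.95 against 13.6 ± 2.19 CPM. Obp83ef was at 11.4 ± 1.41 against 14.6 ± 5.55 CPM, and 92 of its exonic bases are shared with Obp83cd on the opposite strand. Obp99b, known for its expression in the head fat body of males, was at 12.6 ± 4.42 against 12.9 ± 2.74 CPM. The 5 fat body genes summed to 43922 to 54647 CPM in deprived and 44421 to 49817 CPM in replete libraries, and their part in the Obp levels was not tested.

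Each replete library moved these values in its own way. Set against the deprived mean alone, replete library 1 gave a median log2 ratio over the tested members of -0.05 with 18 of 29 negative, replete library 2 gave -0.45 with 19 negative, and replete library 3 gave -0.18 with 20 negative. The same medians over all tested genes were each 0.01. Replete library 2 held the highest of the 3 replete values in 17 members (58.6%), compared with 34.4% of all tested genes. In replete library 1 these shares were 2 members (6.90%) and 29.6% of all tested genes. Summed over all 51 members, the Obp level was 2189, 2181 and 2133 CPM in deprived libraries 1, 2 and 3 and 2046, 2712 and 1957 CPM in replete libraries 1, 2 and 3. The deprived sums thus lay within a narrow band, between replete library 2 on the upper side and the other replete libraries on the lower side. The replete mean was 2238 ± 412 CPM with replete library 2 and 2002 CPM without it, against a deprived mean of 2168 ± 30.1 CPM. The close deprived sums hide opposite moves of single sets of members. The 9 members known to be abundant in the antenna summed to 865, 1095 and 808 CPM in deprived libraries 1, 2 and 3. The other 42 members summed to 1324, 1086 and 1325 CPM in the same libraries.

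With replete library 2 left out, the median log2 fold change of the tested members was -0.13, and only Obp19c and Obp57a were lower at an unadjusted p under 0.05, or 6.90% of 29 beside 2.59% of all genes in that fit. In the same fit Obp99c was higher, with a log2 fold change of 0.34 (edgeR quasi-likelihood, unadjusted p = 0.0196, BH-adjusted p = 0.627), and 3.59% of all genes were higher. With replete library 3 left out, the median was -0.26, 6 of 30 members were lower beside 3.85% of all genes, and Obp19a and Obp83b were higher beside 3.52% of all genes. Obp19a then had a log2 fold change of 1.02 (edgeR quasi-likelihood, unadjusted p = 0.00355, BH-adjusted p = 0.314), compared with 0.47 over all 6 libraries. With replete library 1 left out, the median was -0.23, 6 of 29 members were lower beside 3.28% of all genes, and 0 were higher beside 3.09%. The direction of single members differed from the fit of all 6 libraries for 9 members without replete library 2, for 4 without replete library 3 and for 2 without replete library 1.

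**Figure D3:**
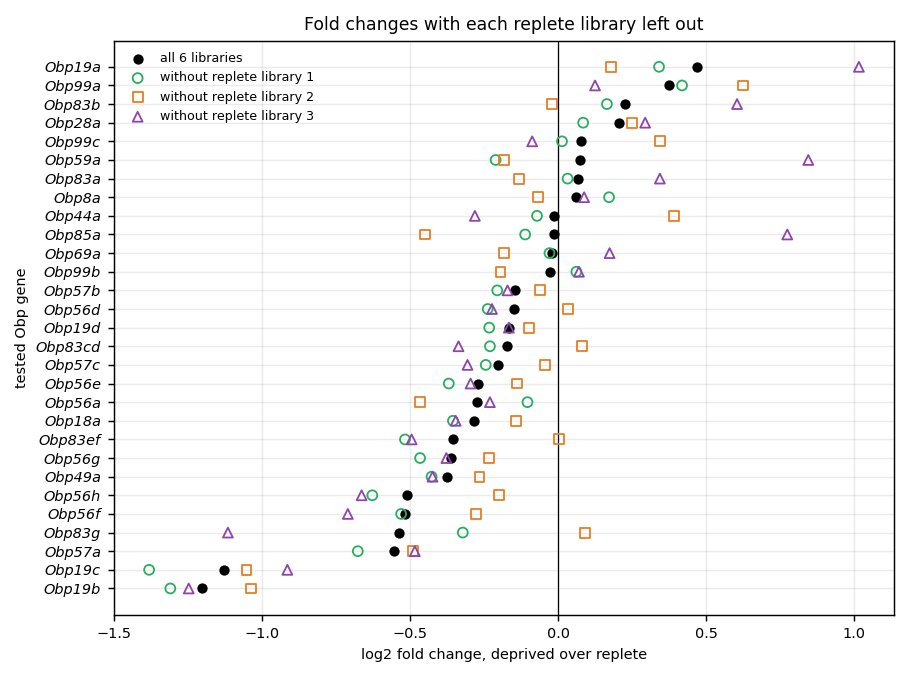
Log2 fold change (deprived over replete, horizontal axis) of the 29 tested Obp genes with all 6 libraries (black) and with each replete library left out (open symbols). Leaving out replete library 2 moves Obp44a from -0.01 to 0.39 and Obp99c from 0.08 to 0.34, while leaving out replete library 3 moves Obp19a from 0.47 to 1.02 and Obp59a from 0.08 to 0.84. Obp19b, Obp19c, Obp49a, Obp56g and Obp57a stay below 0 in each of these fits, as their deprived values all lie below their replete values.

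Leaving out a deprived library changed the counts at an unadjusted p under 0.05 as well. Without deprived library 1, 2 members were lower beside 1.98% of all genes and 0 were higher beside 1.9%. Without deprived library 2 these were 6 members beside 2.07% and 0 beside 2.44%, and without deprived library 3 they were 4 members beside 1.58% and 0 beside 1.78%. Obp19b, Obp19c, Obp49a, Obp56g and Obp57a had a negative log2 fold change in each of the 6 fits that left out 1 library. Their deprived values all lay below their replete values, so leaving out 1 library could hardly reverse the sign. The kept direction is therefore no separate support. Obp19b, Obp49a and Obp56g were above an unadjusted p of 0.05 without deprived library 1 or replete library 2, Obp57a without deprived library 3, and Obp19c without replete library 3. Over the 6 fits the log2 fold change ran from -1.56 to -0.84 for Obp19b, from -1.38 to -0.91 for Obp19c, from -0.68 to -0.46 for Obp57a, from -0.46 to -0.26 for Obp49a and from -0.47 to -0.23 for Obp56g.

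Some of the members known to be abundant in the antenna followed another order of libraries than most of the rest. Of 9 such genes, 8 were tested and 0 were called (background above). Obp83a and Obp83b, also known as OS-F and OS-E, are made together in sensilla that detect pheromone. Obp83a was at 22.5, 38.8 and 27.3 CPM in deprived libraries 1, 2 and 3 and at 26.7, 19.9 and 38.0 CPM in replete libraries 1, 2 and 3, and Obp83b was at 20.7, 35.4 and 25.4 CPM against 21.1, 14.6 and 34.0 CPM. Both were high in deprived library 2 and replete library 3 and lowest in replete library 2. Obp19a showed the same order more widely, at 16.9, 28.7 and 17.3 CPM against 12.3, 8.47 and 24.7 CPM. Obp59a, which is needed for sensing humidity, was at 2.19, 6.67 and 3.89 CPM against 2.23, 2.48 and 7.38 CPM, and it had the same libraries on top.

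Obp28a, an abundant antennal protein that limits the response of its sensilla to sudden odour pulses, was at 29.5, 58.8 and 28.8 CPM against 27.8, 35.8 and 37.8 CPM. Here deprived library 2 stood alone at the upper end and replete library 2 was not low. Obp69a, linked to the social response to pheromone, was at 4.72, 6.85 and 7.02 CPM against 6.202, 4.80 and 7.88 CPM. In all, deprived library 2 held the highest deprived value in 7 of the 8 tested antennal members and in 4 of the 21 others. Over all tested genes this share was 34.5%. Replete library 2 held the highest of all 6 values in 2 of the 8 antennal members, Obp19d and Obp56d, and in 14 of the 21 others. It held the lowest of all 6 values in 3 of the 8 and in 2 of the 21. No share over all tested genes was computed for these extremes of all 6 values. The ninth antennal gene, Obp84a, was at 0.113 to 0.376 CPM in all 6 libraries and was too low to be tested.

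Many other olfactory genes of the antenna showed a similar order of libraries. In bulk heads, fewer cells of a type and less RNA per cell cannot be told apart. The gene lush was at 6.17, 9.92 and 4.93 CPM in the deprived libraries and at 5.09, 3.84 and 6.03 CPM in the replete libraries (edgeR quasi-likelihood, unadjusted p = 0.131, BH-adjusted p = 0.999). Ir25a, a co-receptor of ionotropic receptors, averaged 6.27 CPM, and Orco, the co-receptor of the odorant receptors, was at 6.91, 14.7 and 8.94 CPM against 10.4, 7.40 and 16.0 CPM. Of 11 perireceptor genes outside the naming rule, 8 had their highest value in deprived library 2 and 6 their lowest value in replete library 2. The other 3, EbpIII, Est-6 and Phk-3, went the other way, with their highest value in replete library 2. For these extremes of all 6 libraries, no share over all tested genes was computed. Of the 5 olfactory co-receptors, 4 were highest among the deprived libraries in deprived library 2, and all 5 were lowest among the replete libraries in replete library 2. Over all tested genes these shares were 34.5% and 36.9%. The 11 perireceptor genes summed to 1172 to 1256 CPM in deprived and 1164 to 1661 CPM in replete libraries. Most of this came from EbpIII and Est-6, at 734 and 389 CPM on average. The top sum, 1661 CPM, was that of replete library 2, where EbpIII was at 1091 CPM. The 5 co-receptors summed to 15.9 to 28.9 CPM in deprived and 16.0 to 31.6 CPM in replete libraries. No gene of either list was at 0 in all 6 libraries, none of the 16 tested genes was called in edgeR, and 0 were at an unadjusted p under 0.05. Over all tested genes 0.0367% were called lower and 0.294% higher, and 2.41% and 2.72% were lower and higher at that unadjusted p. The part of this antennal signal in the levels of the members was not tested.

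**Figure D4:**
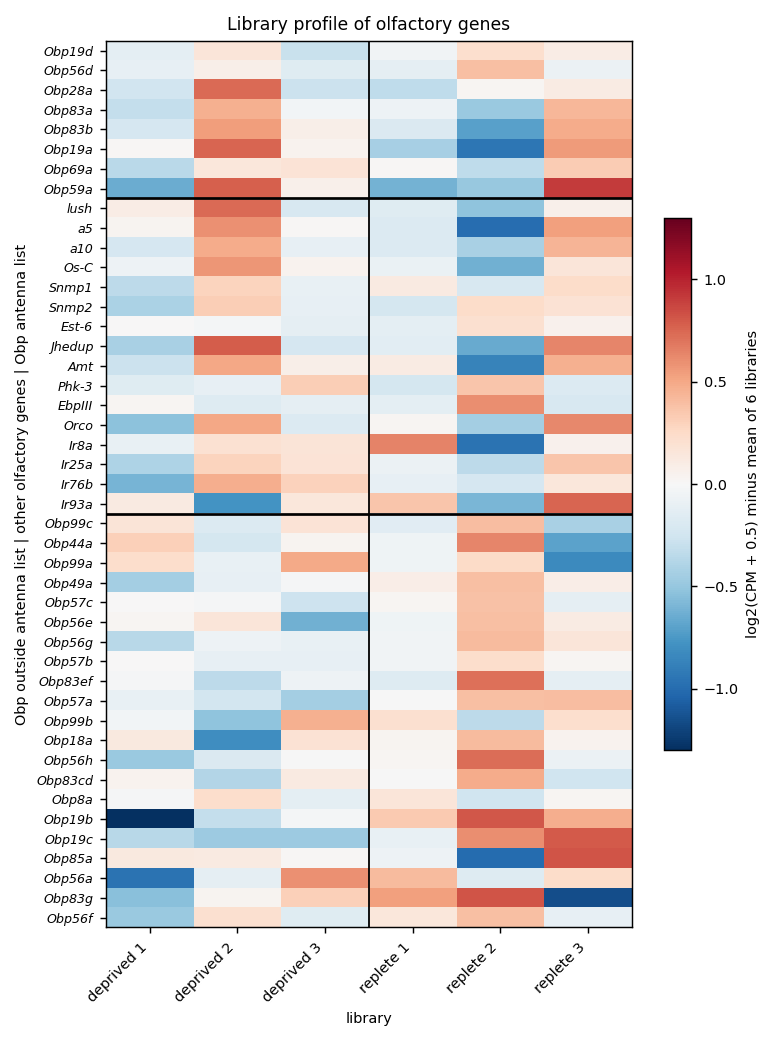
Deviation of each gene from its own mean over the 6 libraries, on the log2(CPM + 0.5) scale (colour), by library (columns). Rows are the 8 tested Obp genes of the antenna list, 16 other olfactory genes and the other 21 tested Obp genes. Median deviations in replete library 2 are -0.40 for the antenna list and 0.39 for the other Obp genes, and in deprived library 2 they are 0.50 and -0.11.

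Many members lie side by side in the genome, and neighbours did not always share a pattern. By the annotation of Ensembl (release 115, assembly BDGP6.54), matched through gene identifiers, 29 members lie on chromosome arm 2R, 12 on 3R, 6 on X, 2 on 2L and 2 on 3L. With members less than 20 kb apart joined, 33 members fall into 10 clusters. Obp83a and Obp83b, within 4.66 kb on 3R from 5972155 to 5976817, varied 1.95-fold and 2.42-fold over the 6 libraries while their ratio varied 1.26-fold. Obp57c and Obp57b, adjacent on 2R, varied 1.58-fold and 1.27-fold and their ratio 1.24-fold. Obp57a, the third gene of that cluster (20503584 to 20505758), was not held to the same ratio. The ratio of Obp57c to Obp57a was 5.26, 5.72 and 5.55 in deprived and 4.95, 4.80 and 3.35 in replete libraries. Of the 9 ratios of neighbours that were computed, with pairs chosen after the values were seen, 3 did not overlap between diets, a count for which no background share was computed. They were Obp57c to Obp57a, higher in deprived heads, and Obp83a to Obp83b and Obp19b to Obp19a, both lower. Obp57a and Obp19b were already among the 5 members whose own values did not overlap, so their ratios are not separate findings. The ratio of Obp83a to Obp83b was 1.08, 1.09 and 1.08 in deprived and 1.26, 1.36 and 1.12 in replete libraries.

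The cluster on X from 20415744 to 20420979 holds genes of unlike level and order. Its members Obp19a, Obp19b, Obp19c and Obp19d had mean levels of 18.1, 2.73, 2.35 and 646 CPM. Obp19a averaged 21.0 ± 6.71 CPM without and 15.2 ± 8.51 CPM with vitamin A, whereas Obp19b was at 1.65 ± 0.863 and 3.81 ± 0.732 CPM. The ratio of Obp19b to Obp19a was 0.0415, 0.0653 and 0.138 without vitamin A, compared with 0.263, 0.547 and 0.144 with it. Deprived library 3 and replete library 3 were nearly level in this ratio, and the others were far apart. On 3R, Obp99c and Obp99a both had their lowest value in replete library 3, and the ratio of Obp99c to Obp99a was 2.97, 2.94 and 2.497 against 2.91, 3.45 and 4.14.

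The list of 4 taste organ members held Obp19b and Obp49a, both described above, and Obp57d and Obp57e, which shape host choice in a related fly species. Obp57d was at 0 in all 6 libraries, and all 1488 of its exonic bases in the annotation are shared with Cpr57A on the same strand. Obp57e had 4 counts, all in replete library 2. A list of 20 CheA and CheB genes, a family of secreted proteins of taste sensilla, was set beside them. Of its 8 tested genes 7 had a negative log2 fold change, beside 52.0% of all tested genes. In edgeR 0 were called, where 0.0367% of all tested genes were called lower and 0.294% higher. At an unadjusted p under 0.05, 4 were lower and 0 higher, beside 2.41% and 2.72% of all tested genes. These 4 were CheA7a, CheA75a, CheB38c and CheB42c. The most abundant gene of the list, CheB42c, was at 3.80, 3.98 and 5.47 CPM against 5.21, 8.98 and 7.63 CPM. The next, CheB42a, was at 2.49, 2.01 and 5.81 CPM against 2.85, 3.95 and 5.48 CPM. CheA7a, named after its values were seen, was at 0.700, 0.731 and 0.877 CPM against 1.61, 6.21 and 2.71 CPM (edgeR quasi-likelihood, unadjusted p = 0.00126, BH-adjusted p = 0.194). CheA75a and CheB38c, also named afterwards, were low. CheA75a was at 0.0875, 0.731 and 0.501 CPM against 0.744, 2.94 and 3.69 CPM. CheB38c was at 0, 0 and 0.418 CPM against 0.620, 1.02 and 0.985 CPM. CheB38c passed the low-count filter only through the replete libraries. CheA75a, with deprived values as low as 0.0875 and 0.501 CPM, also needed its replete libraries to pass. The counts of 4 lower and 7 negative genes thus rest in part on the group where those genes were high. The list summed to 12.0 to 18.8 CPM in deprived and 16.7 to 28.3 CPM in replete libraries, with 2 of its 20 genes at 0 in all 6 libraries and the top value in replete library 2.

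Members known as seminal fluid genes in males were partly expressed in these female heads. Of 7 such genes, Obp56e, Obp56g, Obp8a and Obp56f were tested, at 45.5, 32.2, 3.04 and 0.589 CPM on average, while Obp51a reached 0.351 CPM, Obp56i had 1 count and Obp22a had none. Of the male accessory gland markers, SP, Acp26Aa and Acp76A were at 0 in all 6 libraries, and the 9 genes of that list summed to 4.99 to 7.49 CPM in deprived and 3.67 to 7.38 CPM in replete libraries, largely through Acp36DE and Acp63F at 3.49 and 1.62 CPM on average. Obp8a was at 2.97, 3.61 and 2.72 CPM against 3.41, 2.43 and 3.08 CPM, with overlapping groups.

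At the low end, 10 of the 29 tested members averaged under 10 CPM, and the 12 members with counts that failed the filter had means of 0.0103 to 0.351 CPM and no more than 15 counts in any library. The highest of these 12 were Obp51a and Obp73a. Obp85a was at 1.71, 1.69 and 1.55 CPM without vitamin A and at 1.43, 0.508 and 3.08 CPM with it, so the replete libraries spanned a 6.06-fold range around nearly level deprived values. Obp56a was at 0.437, 1.19 and 2.26 CPM against 1.92, 1.13 and 1.66 CPM. Obp83cd was at 5.62 ± 1.08 against 6.33 ± 1.83 CPM. Obp83g had no count in replete library 3 and 6 to 26 counts in each of the other libraries. The members at 0 in all 6 libraries were Obp22a, Obp47a, Obp47b, Obp50a, Obp50b, Obp50c, Obp50d, Obp50e, Obp56b and Obp57d. By counting error alone, a count of 0 allows a level of up to 0.125 to 0.186 CPM per library. The annotation gives Obp50b and Obp50c the same 1648 exonic bases on the same strand, and all 611 exonic bases of Obp47b lie opposite exons of CG7741. How reads of such shared bases were assigned is not given in the sources used here. The bound may therefore not hold for Obp47b, Obp50b, Obp50c or, with its shared bases described above, Obp57d.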

How the data were processed

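Count files, 1 per library, were used as deposited: whole-number read counts per gene, without normalization. Per the submitters' processing notes, STAR 2.5.3a, Subread 1.6.2 with featureCounts, Trim Galore 0.4.2 and FastQC 0.11.5 were used. The sources used here give neither genome build and annotation nor strand and multi-mapping settings, so reads of overlapping genes may be assigned unevenly. Of 17509 identifiers, 17389 matched a symbol, including all members.

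Genes were filtered with filterByExpr (minimum count 10, minimum total 15), leaving 10896 of 14562 genes with a count. Groups were compared with edgeR 4.0.16 in R 4.3.3 (quasi-likelihood F test, TMM, robust dispersion, group as the only term). SE is the log2 fold change divided by the root of F. DESeq2 1.42.0, limma-voom (limma 3.58.1), other normalizations and filters, non-robust dispersion, a replicate block, leaving out each library, and removal of ribosomal RNA genes with those of mitochondria were alternatives. Between replicate pairs the chi-square divided by its degrees of freedom was 19.2 to 46.5, so no library counted as a duplicate.

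Members and lists were chosen with earlier results of these data known. Named genes were members with a mean of at least 10 CPM or an unadjusted p under 0.05, lush, and the 2 most abundant genes and any called gene of each other list. Some further members and list genes fall outside that rule. The symbols nos and antdh found no match.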

Additional observations from a re-analysis of the deposited data

How the results depend on the processing

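No Obp gene was called in any of the 15 alternatives, where the smallest adjusted p of a named member was 0.314, and the median log2 fold change of the tested members stayed negative, from -0.26 to -0.12. With the replicate block 6 of 10896 genes were called lower and 24 higher, with 0 of 29 Obp genes among them. At an unadjusted p under 0.05 in that fit, 5 of 29 Obp genes (17.2%) were lower and 0 higher. Over all 10896 genes 225 were lower and 268 higher at that threshold. Libraries with the same number had correlated deviations of -0.07, -0.005 and 0.20, so the numbers were not taken to pair them. Over all genes, 10 were called lower with no low-count filter, and DESeq2 called 25 lower and 60 higher, compared with 4 and 32. Leaving out single libraries gave 2 to 7 genes called lower and 18 to 32 called higher, and 2 to 6 Obp genes lower and 0 to 2 higher at an unadjusted p under 0.05. Over all genes in those fits, 1.58% to 3.85% were lower and 1.78% to 3.59% higher at that unadjusted p.

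Of the 21 named Obp genes, 13 kept their direction in all 15 alternatives. These include the 5 members without overlap between diets, whose direction could hardly change when 1 library was left out. With 1 library left out, log2 fold changes crossed 0 for Obp83ef (-0.52 to 0.0039), Obp83b (-0.022 to 0.60), Obp83a (-0.18 to 0.34), Obp28a (-0.22 to 0.38), Obp99b (-0.32 to 0.19), Obp99c (-0.087 to 0.34), Obp56d (-0.24 to 0.034) and Obp44a (-0.28 to 0.39). Obp44a was at 0.070 in limma-voom and 0.078 with the replicate block. The cause of these reversals was not tested. The 12 members that failed the filter had at most 15 counts in any library and were not tested. The SE of the log2 fold change was 0.27 to 0.94 for the 10 tested members under 10 CPM and 0.12 to 0.44 for the other 19.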
